A study of Homo sapiens with 3 samples.

Results

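Among the chromatin loops in the authors' deposited table, 2363 joined autosomal sites more than 1 Mb apart, out of 279618 listed loops of any length. They were chosen by length alone, as loops on autosomes whose right end minus left end, both bases counted, was above 1000000 bp. No loop of that length was listed on chromosome X. The loops came from Hi-C, in which neighbouring DNA in crosslinked nuclei is cut, ligated and sequenced, so that ligated pairs report contact. The cells were HCT116, a colorectal carcinoma line, and every library was in a p53-/- background. There were 3 libraries, 1 per group. They came from an ORC2 deletion clone made with CRISPR/Cas9, a clonally selected ORC2 rescue line that carries ORC2 on the pLHCX vector, and the wild-type line. Each edited group was thus a single clone, and clone and genotype cannot be told apart.

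A loop in Hi-C is a pair of sites that meet more often than their surroundings. Cohesin extrudes DNA until it is halted, mostly at CTCF sites, and this process is known to make many loops. Contacts over long distances are also known to join regulatory elements to distant genes and to connect sites of like chromatin state. Which of these the loops studied here reflect was not tested. ORC2 belongs to the complex that marks replication origins and loads the replicative helicase there.

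Each listed loop carries a class word that reads conserved gain, conserved lost or not conserved, called gained, lost and not conserved here. Which libraries define each class, and what conserved means, is not given in the sources used here, so no direction relative to ORC2 was read from any class. The table carries no contact counts and no values per library, and depth is unknown. No test between conditions was possible, and no value below has an error between cultures. Intervals in brackets are 95% Wilson intervals. They reflect counting error alone, and neighbouring loops, which they take as independent, are not.

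Sequence was examined where an annotated gene start lay in an end of a loop above 1 Mb, an end being the 5 kb inward from the listed position. Starts and sequences are RefSeq's (GRCh38.p14). The first 3 lines show the 30 bases before the starts of lncRNA genes (long transcripts with no protein product). Among the starts available, theirs lay in ends of the most gained loops above 1 Mb. At these starts 6 of 6, 6 of 11 and 4 of 18 loops above 1 Mb were gained, and the others were not conserved. The next 4 lines show the same stretch for examples of protein-coding genes whose starts lay at not conserved ends only. Capitals mark CpG, the dinucleotide that is dense at most housekeeping and developmental promoters.
VCAN-AS1 (chr5:83562315-83562344, minus strand): tcttgattccaaatcaaattaaactacaac
LOC101926944 (chr1:59772765-59772794, plus strand): cagataaggaaaaCGaagcacagagcaatt
LOC100506474 (chr2:13007014-13007043, minus strand): tgtgtttgtcctctagcactaggtgggttt
IGFBP3 (chr7:45921273-45921302, minus strand): tatatagCGgcCGgCGCGccCGggcCGccc
FOXC1 (chr6:1609885-1609914, plus strand): CGtaaaaaagtcctCGcctgggtgaCGgat
KLF4 (chr9:107489770-107489799, minus strand): gttataagtaaggaaCGCGCGcCGgCGgcc
BCL6 (chr3:187745469-187745498, minus strand): aattcCGagaattgagctctgttgattctt

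In the 300 bases around each start, VCAN-AS1 held 1 CpG, LOC101926944 held 4 and LOC100506474 held 4. The counts were 36 at IGFBP3, 40 at FOXC1, 33 at KLF4 and 12 at BCL6. The starts shown for protein-coding genes were richer in CpG than the lncRNA starts shown, but CpG-rich lncRNA starts also lay at not conserved ends, such as ITFG1-AS1 with 59. Over all 18 starts at gained ends, 16 of them of lncRNA genes, the median was 3 CpG. It was 8 over the 61 starts found at not conserved ends only, and 14 over all 33724 autosomal starts. Among lncRNA starts alone the medians were 2.5 CpG at gained ends, 6 at not conserved ends only and 5 over all autosomal ones. Among protein-coding starts the median was 18.5 CpG over the 2 counted at gained ends, RBM19 with 26 and PLPP3 with 11. It was 17 at not conserved ends only and 21 over all counted autosomal ones. The lines shown thus differ in kind of gene as well as in having gained loops. The core of the CTCF motif was written CCANNAGNNGGC and searched on both strands. It occurred in 2 of 79 counted starts at ends above 1 Mb (2.53%), against 2.43% of all counted autosomal starts. Both were starts of the lncRNA gene DIRC3 and shared a single match, shown in capitals below. Its 9 loops above 1 Mb were not conserved.
DIRC3 (chr2:217756711-217756740, minus strand): ggctcccgcCCACCAGGGGGCagtcttcac

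Among miRNA genes with a RefSeq sequence here, MIR4262 and MIR4683 lay in ends of loops above 1 Mb. Ends with MIR4262 on chromosome 2 belonged to 11 loops, 3 of them gained, and those with MIR4683 on chromosome 10 to 9 loops, none gained. Their mature sequences are given with the seed, bases 2 to 8, in capitals. The seeds differ.
hsa-miR-4262 (chr2:11836943-11836959, minus strand): gACAUUCAgacuaccug
hsa-miR-4683 (chr10:35641181-35641203, minus strand): uGGAGAUCcagugcucgcccgau

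In the authors' deposited table, 261 of the 2363 loops above 1 Mb were gained (11.0%, interval 9.84 to 12.4%). Among 273786 autosomal loops up to 1 Mb the gained share was 1.91% (1.86 to 1.96%). No loop above 1 Mb was lost, which allows a share of up to 0.127% by the limit of 3 counts, or 0.162% by the Wilson interval, if loops were independent. Of loops up to 1 Mb, 0.171% were lost, and with neighbouring loops dependent no difference is read from these values. The longest lost loop measured 745 kb, on chromosome 12. The remaining 2102 loops above 1 Mb were not conserved. No test of the difference in shares was made, since neighbouring loops are not replicates.

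**Figure D1:**
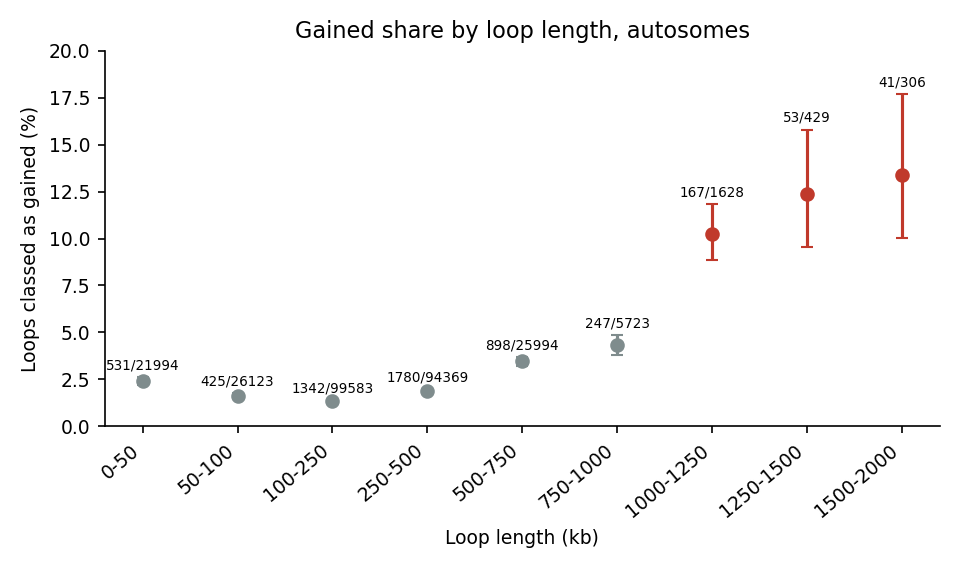
Percent of autosomal loops classed as gained (vertical axis) by loop length in kb (horizontal axis), with 95% Wilson intervals and the number gained over the number listed; red points are loops above 1 Mb. Shares above 1 Mb lie between 10.3 and 13.4%, and shares of shorter loops between 1.35 and 4.32%.

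Below 1 Mb the gained share was lowest at middle lengths. It was 2.41% up to 50 kb, 1.63% at 50 to 100 kb, 1.35% at 100 to 250 kb, 1.89% at 250 to 500 kb, 3.45% at 500 to 750 kb and 4.32% at 750 to 1000 kb, as the plot of gained share by length shows. Above 1 Mb it was 10.3% at 1000 to 1250 kb, 12.4% at 1250 to 1500 kb and 13.4% at 1500 to 2000 kb, and the intervals of these 3 steps overlap. In finer steps the share did not follow length. It was 7.47% at 1000 to 1100 kb, 8.10% at 1100 to 1200 kb and 11.7% at 1300 to 1500 kb. It was 18.7% (15.4 to 22.4%) at 1200 to 1300 kb, 6.53% (3.86 to 10.9%) at 1500 to 1750 kb and 26.2% (18.8 to 35.2%) at 1750 to 2000 kb. The last step rested on few loci, since its 28 gained loops formed 3 regions on 2 chromosomes. At the limit itself, 5 of 63 loops of 1000 to 1010 kb and 9 of 71 loops of 990 to 1000 kb were gained. The 5 loops just above the limit measured 1000.17 to 1000.59 kb and were not conserved, and of the 5 just below, at 999.67 to 999.92 kb, 2 were gained.

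Gained loops above 1 Mb had a median length of 1218 kb, against 1155 kb for not conserved ones. The longest gained loops, of 1976 to 1984 kb, spanned EPHA3, an ephrin receptor gene, on chromosome 3. The longest not conserved loops, of 1958 to 1990.5 kb, ran downstream from the neighbourhood of MYC, which encodes a growth-promoting transcription factor, on chromosome 8. The longest loop in the whole table measured 1.99 Mb, and whether the caller set a ceiling is not given in the sources used here.

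Long gained loops were unevenly spread over the genome. Chromosomes 2, 3, 5 and 12 held 53, 42, 36 and 36 of them, together 167 of 261 (64.0%). They held 514 of the 2102 not conserved loops above 1 Mb (24.5%). These 4 were picked as the chromosomes with most gained loops, so a larger share of the gained loops is expected from the choice. Joined where both ends lay within 10 kb, their gained loops formed 10, 5, 2 and 5 regions. Chromosome 6 had the most loops above 1 Mb, 331, of which 7 were gained. Chromosome 16 had 2 gained of 248. Chromosomes 11, 17, 19 and 22 had 58, 100, 158 and 4 loops above 1 Mb and none gained, and chromosome 18 had no loop of that length. On 14 of 21 autosomes the gained share above 1 Mb exceeded that up to 1 Mb on the same chromosome, and on 7 it was lower. Across the 19 autosomes with at least 10 such loops the median share was 6.90% above 1 Mb and 1.81% up to 1 Mb.

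**Figure D2:**
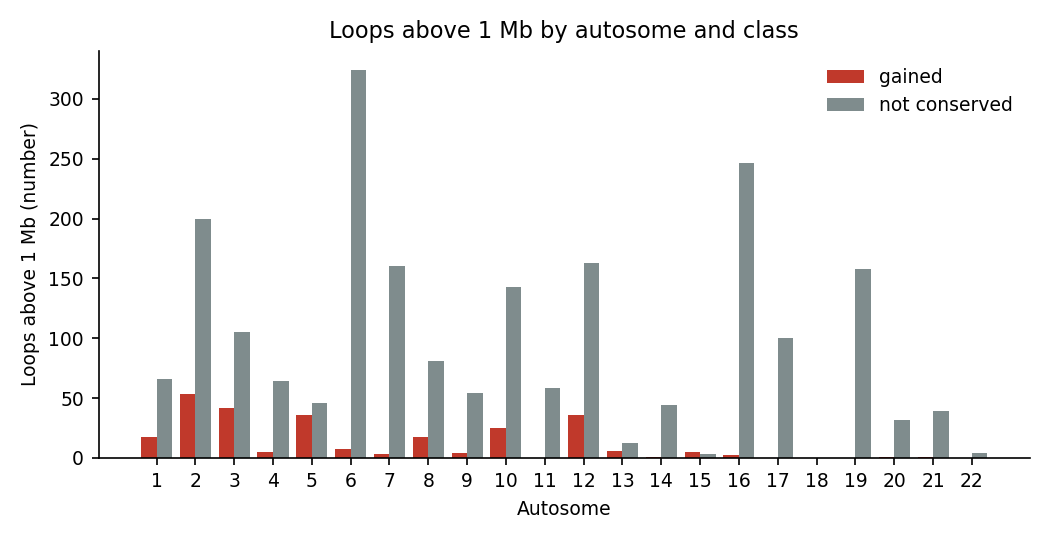
Number of loops above 1 Mb (vertical axis) on each autosome (horizontal axis), gained in red and not conserved in grey. Gained loops peak on chromosome 2 with 53 and not conserved loops on chromosome 6 with 324.

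Because neighbouring loops may describe one contact at several adjacent positions, loops of a class were joined where both ends lay within 10 kb of another's. The 261 gained loops formed 49 regions and the 2102 not conserved loops formed 144. The 10 largest gained regions held 139 loops (53.3% of gained), and the 10 largest not conserved regions held 872 (41.5%). With both classes joined together there were 158 regions. Of these, 17 held gained loops only, 24 held both classes and 117 held not conserved loops only. The regions of mixed class held 196 of the 261 gained loops, and 31.5% of their loops were gained. Within these 24 regions the gained loops had the greater median length in 9 and the smaller in 15.

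The largest gained region lay on chromosome 5, with left ends at 82338235 to 82362272 and right ends at 83547430 to 83593351. Its 27 gained loops measured 1195 to 1241 kb. Right ends of 24 of them fell in VCAN, which encodes versican, a proteoglycan of the extracellular matrix, and 16 in the overlapping antisense gene VCAN-AS1. Left ends met no protein-coding gene, the nearest being RPS23, a ribosomal protein gene 59.9 kb away. The genes wholly between the ends were XRCC4, a factor of DNA end joining, and TMEM167A. Within the region, 27 of 30 listed loops above 1 Mb were gained. VCAN had 27 listed loops above 1 Mb and none up to 1 Mb, so its contacts in this list were all long.

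The second lay on chromosome 3, from left ends at 67096465 to 67113923 to right ends at 68882017 to 68905930. All 23 gained loops, of 1768 to 1809 kb, ended in TAFA4, which encodes a secreted chemokine-like protein of neurons. They spanned SUCLG2, a subunit gene of succinyl-CoA ligase, and TAFA1, a gene of the same family as TAFA4. Together with loops beside them, 23 of the 34 loops of the joined region were gained. No loop up to 1 Mb was listed at TAFA4 or inside the region, so no shorter contact could be set beside the long ones.

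On chromosome 12, 2 gained regions of 18 and 13 loops shared right ends at 92565279 to 92584033 and had left ends at 91355393 to 91378293 and 91399609 to 91409168. BTG1, an antiproliferative gene, was the only protein-coding gene wholly between the ends. Neither side met a protein-coding gene, and each loop had lncRNA genes at both ends, LOC105369896 on the left and LOC105369905 on the right. Of 50 loops above 1 Mb in the joined block, 31 were gained, and they lay in separate stripes. At the 6 leftmost left ends 18 of 25 loops were gained, at the next 4 left ends none of 12, and at the 3 rightmost 13 of 13. The stripes were picked after their values were seen and were not tested.

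**Figure D3:**
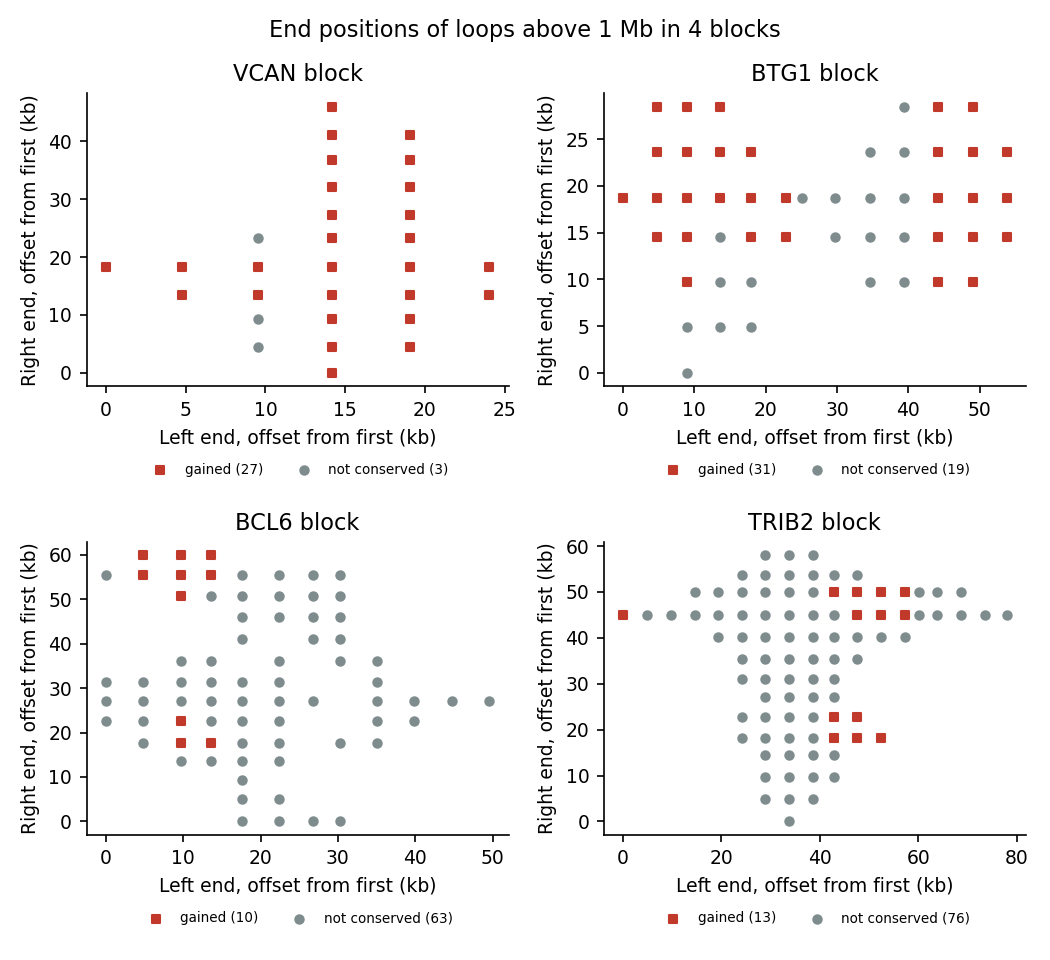
Each point is a loop above 1 Mb, placed by the offset in kb of its left end (horizontal axis) and right end (vertical axis) from the first such end in the block, with gained loops as red squares and not conserved loops as grey circles. Gained loops number 27 of 30 in the VCAN block, 31 of 50 in the BTG1 block, 10 of 73 in the BCL6 block and 13 of 89 in the TRIB2 block.

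The BCL6 block on chromosome 3 was large and mostly not conserved. BCL6 encodes a transcriptional repressor of germinal centre B cells. In total 84 loops above 1 Mb had an end in the gene (187721377 to 187745468), 11 of them gained, while its 38 loops up to 1 Mb included none gained. In the joined block, with right ends at 188930225 to 188990098, 10 of 73 loops were gained. They all started at 3 adjacent left ends, where 10 of 24 loops were gained. This stretch was picked after its values were seen, as the left ends that had gained loops, so the absence of gained loops on either side of it follows from the choice. BCL6 is transcribed from the minus strand, so the gained ends lay on the downstream side, and the 17 and 18 loops that held its annotated starts included no gained one. A further 6 gained loops ran on from these left ends to TPRG1, at 1501 to 1515 kb. LPP, which encodes an adhesion protein with LIM domains, was spanned by 85 loops above 1 Mb, 16 of them gained.

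A block on chromosome 2 from LPIN1, a phosphatidate phosphatase gene, to the far side of TRIB2, a pseudokinase gene, held 89 loops, 13 of them gained. LPIN1 itself met 46 loops above 1 Mb, with 1 gained. The other gained loops had left ends in the lncRNA gene LOC105373430 next to it, 8.10 kb or more from LPIN1. Right ends met the lncRNA genes LOC105373436 and LOC100506474. TRIB2 stood between the ends of 93 loops above 1 Mb, 13 of them gained.

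Other gained regions among the 10 largest held 8 to 12 loops and spanned genes of several kinds. On chromosome 2 at 18518431 to 19872393, 12 gained loops spanned OSR1, a transcription factor gene of kidney and limb development. On chromosome 1 at 58712583 to 59782843, 11 gained loops spanned JUN, which encodes a subunit of the AP-1 transcription factor, and 17 loops lay in the same span of ends. On chromosome 10 at 30747990 to 31815257, 9 gained loops spanned ZEB1, a repressor of epithelial genes, and 5 of them ended in ARHGAP12. On chromosome 5 at 53167073 to 54232223, 9 gained loops ended in ARL15, a small GTPase gene, and spanned FST, which encodes the activin-binding protein follistatin, and NDUFS4, a subunit gene of respiratory complex I. The tenth, on chromosome 2 at 163189352 to 164438762, had 8 gained loops across FIGN, a microtubule-severing enzyme gene.

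Smaller gained regions included several well-known genes. On chromosome 10, 5 gained loops of 1049 to 1058 kb ran from VTI1A, a SNARE protein gene, across TCF7L2, the Wnt pathway transcription factor. VTI1A was the only gene with 5 or more loops above 1 Mb that were all gained, and 20 of its 33 loops up to 1 Mb were gained too. On the same chromosome at 3189654 to 4778182, 7 gained loops spanned KLF6, a zinc finger transcription factor gene. On chromosome 2, 7 gained loops of 1259 to 1273 kb ended at or beside ID2, an inhibitor of helix-loop-helix factors, and none of the 50 loops up to 1 Mb at ID2 was gained. On chromosome 8, 6 gained loops of 1127 to 1137 kb started at MYC and its neighbour CASC11. Ends in the MYC gene belonged to 8 loops above 1 Mb, 2 of them gained, and to 119 loops up to 1 Mb, 1 of them gained. Chromosome 6 had 4 gained loops from THEMIS, a T cell gene, across PTPRK, a receptor phosphatase gene.

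Among the 10 largest regions of not conserved loops, those at LPIN1 and BCL6 shared these genes with gained loops. No protein-coding gene at an end of the others met a gained loop above 1 Mb. On chromosome 19, 158 loops of 1490 to 1604 kb, every listed loop above 1 Mb on that chromosome, formed a single region. ZNF536, a zinc finger repressor gene of neurons, lay at 148 of their left ends, and TSHZ3, a homeobox gene, between the ends. On chromosome 6, 123 loops joined the FOXC1 neighbourhood to MYLK4, with 70 right ends in MYLK4, a kinase gene. Also on chromosome 6, 112 loops of 1215 to 1323 kb ran across RUNX2, the transcription factor of bone formation, to CLIC5, a chloride channel family gene, which held 106 right ends. RUNX2 was spanned by 179 loops above 1 Mb and none was gained. On chromosome 12, 88 not conserved loops of 1206 to 1295 kb started at or beside TBX3, a limb and mammary transcription factor gene. On chromosome 17, 60 loops started in MAP2K6, a p38 pathway kinase gene, and on chromosome 7, 70 loops started around IGFBP3 and IGFBP1, the genes of insulin-like growth factor binding proteins. On chromosome 16, 64 not conserved and 2 gained loops spanned a stretch that includes NPIPB4 and NPIPB5, members of a duplicated family with near-identical copies, so this region is uncertain. Of the 10 largest not conserved regions, the spans of ends held gained loops in 3, those at LPIN1, BCL6 and the NPIPB genes.

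**Figure D4:**
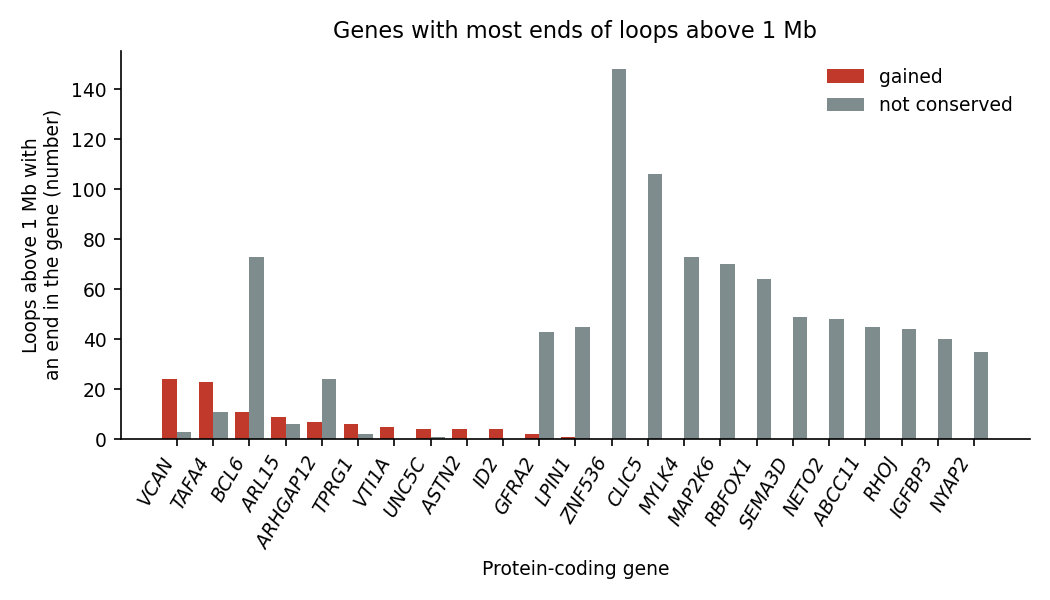
Number of loops above 1 Mb (vertical axis) with an end in each protein-coding gene (horizontal axis), gained in red left of not conserved in grey, for the 15 genes with most such loops and the 10 with most gained ones. VCAN leads the gained loops with 24 of 27, and ZNF536 the not conserved loops with 148 and no gained one.

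In all, 86 protein-coding genes had an end of a loop above 1 Mb, which is 0.882% of the 9754 genes at any listed autosomal end, and 28 (0.287%) had a gained one. Of the 28, 19 also had a not conserved loop above 1 Mb and 9 had only gained ones. Among the 56 genes with at least 5 such loops, 6 had 50% or more of them gained. The genes at ends above 1 Mb were long, with a median of 128 kb, against 29.3 kb for the other genes at listed ends. A gene's chance of meeting an end grows with its length, and the lengths were not matched.

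Ends of loops above 1 Mb met protein-coding genes less than ends of shorter loops in share, with no test of the difference. For gained loops above 1 Mb, 45.6% had a gene body at 1 end or both (39.7 to 51.7%). For not conserved ones the share was 60.7% (58.6 to 62.8%). Up to 1 Mb the shares were 76.5% for gained and 76.9% for not conserved loops. Both ends met a gene in 6 of 261 gained loops above 1 Mb (2.30%) and in 11.0% of not conserved ones, against 36.2% of all loops up to 1 Mb. The VCAN and TAFA4 regions carried much of the gained share, which was 34.1% without them. Counted by region, a gene was met by 27 of 49 gained ones (55.1%, 41.3 to 68.1%). It was met by 97 of 144 not conserved regions (67.4%, 59.3 to 74.5%), and the intervals overlap.

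**Figure D5:**
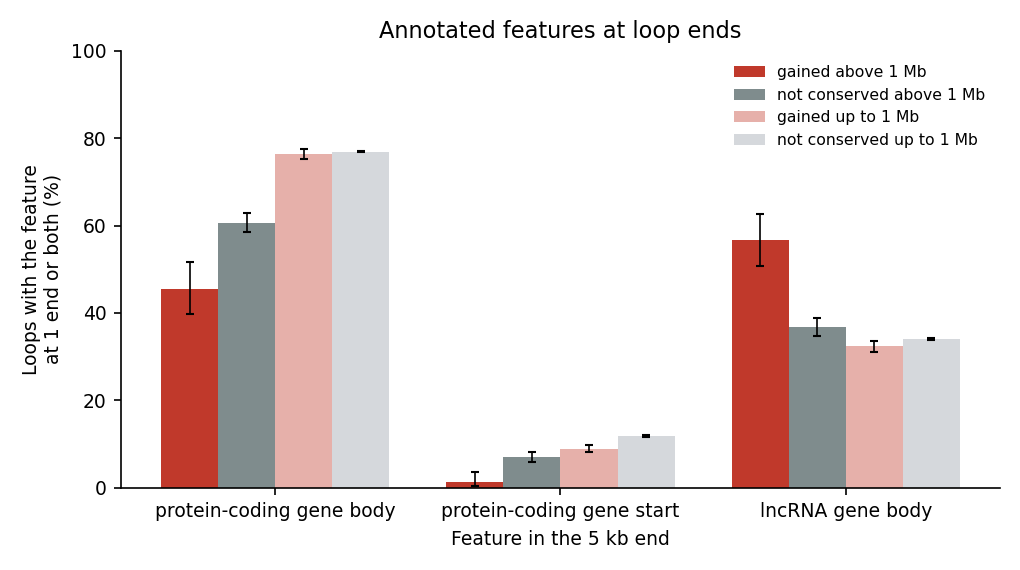
Percent of loops (vertical axis) with a protein-coding gene body, a protein-coding gene start or a lncRNA gene body in the 5 kb at 1 end or both (horizontal axis); bars are gained and not conserved loops above 1 Mb, then gained and not conserved loops up to 1 Mb, with 95% Wilson intervals. Gene starts, which lack chromosome 8 and some other genes, were met by 1.23% of gained loops above 1 Mb and 11.9% of not conserved loops up to 1 Mb.

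Gene starts were rarer still at the ends, counted without chromosome 8 and without some genes on other autosomes, whose starts were not available. The starts covered 15100 of 19122 autosomal protein-coding genes, so the shares below may be too low. A protein-coding start lay at an end of 3 of 244 gained loops above 1 Mb (1.23%, 0.419 to 3.55%), at RBM19 and PLPP3. It lay at an end of 6.98% (5.95 to 8.17%) of not conserved loops above 1 Mb and of 11.8% of all loops up to 1 Mb. Without the BCL6 blocks the not conserved share was 5.50%. No loop above 1 Mb had an available start at both ends. Each distinct end was then counted once for its distance to the nearest available protein-coding start. The median was 103 kb for gained ends and 120.3 kb for not conserved ends above 1 Mb, against 39.7 kb for ends of loops up to 1 Mb.

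LncRNA genes lay at 1 end or both of 56.7% of gained loops above 1 Mb (50.6 to 62.6%). The share was 36.7% for not conserved ones (34.7 to 38.8%) and 34.0% for all loops up to 1 Mb. Both ends met one in 23.0% of gained loops and 7.94% of not conserved loops above 1 Mb. Without the 1 Mb window of the BTG1 block, the shares at 1 end or both were 50.2% of gained (43.8 to 56.7%) and 35.8% of not conserved loops (33.8 to 37.9%). The shares at both ends were then 11.5% of gained (7.94 to 16.3%) and 6.66% of not conserved loops (5.66 to 7.82%). By region, lncRNA genes were met at 1 end or both by 55.1% of gained and 53.5% of not conserved regions. They were met on both sides by 20.4% of gained regions (11.5 to 33.6%) and 13.9% of not conserved regions (9.17 to 20.5%), with overlapping intervals.

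The spans of these loops were poor in genes. Midpoints of protein-coding genes numbered 1.66 per Mb of loop at the median for gained and 0.989 per Mb for not conserved loops above 1 Mb. Loops up to 1 Mb had a median of 5.45 per Mb and loops of 500 kb to 1 Mb 2.83 per Mb. The autosomes as a whole held 6.67 per Mb from first to last gene, which is a mean. Means over loops above 1 Mb were 1.78 per Mb for gained and 2.38 per Mb for not conserved ones. The mean over loops up to 1 Mb was 11.97 per Mb. By region the medians were 1.27 per Mb for gained and 1.33 per Mb for not conserved loops above 1 Mb. Of 49 gained regions, 6 had no protein-coding gene wholly between the ends, and the most genes in a gained region was 13, against 63 in a not conserved one.

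Shorter loops that used the same listed left or right position as a long gained loop were mostly not conserved. There were 470 of them, of which 20 were gained (4.26%, 2.77 to 6.48%) and none lost. The VTI1A region held 11 of the 20, and without it the share was 1.99% (1.05 to 3.73%). By length, 18 of the 20 were among the 148 sharing loops of 750 to 1000 kb (12.2%, 7.83 to 18.4%). The share was 4.50% for loops of that length that shared no end. The VTI1A region was not left out of this step. Its 17 sharing loops, 11 of them gained, had a median length of 908 kb. The gained region on chromosome 20 at 23913840 to 24918505 had 25 sharing loops, 5 of them gained. Of these 5, 2 measured 999.67 and 999.70 kb, so they lay beside the long loop and just below the limit. Much of the difference at this length may thus rest on few loci. At 500 to 750 kb none of 127 sharing loops was gained, against 3.53% of the others, and at 250 to 500 kb 2 of 134 were (1.49%), against 1.89%. Shorter loops at the ends of not conserved loops above 1 Mb were gained in 1.15% (0.803 to 1.63%) of 2620 cases, and those that shared no end with a loop above 1 Mb in 1.91%. These pooled shares were not matched for length. Of 49 gained regions, 23 had any listed shorter loop at the same position and 6 had a gained one.

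Gene lists for this cell line and for chromosome biology covered 482 genes in 14 lists, of which 10 had an end of a loop above 1 Mb. The background is 0.882% of genes at listed ends for any loop above 1 Mb and 0.287% for a gained one. Developmental transcription factors gave 4 of 66 genes at listed ends. None was at a gained end, which carries little information at a background of 0.287%. Among them were TBX3 with 26 loops above 1 Mb, FOXC1 with 13 and DLX5 with 1. Among long genes of common fragile sites, 2 of 21 had such ends, the splicing regulator gene RBFOX1 with 64 loops, none gained, and NBEA with 2 gained of 8. KLF4, an intestinal differentiation factor gene, had 8 loops and was the only 1 of 19 intestinal and epithelial genes. PDGFRA, a growth factor receptor gene of fibroblasts, had 12 and was the only 1 of 16 mesenchymal genes. SLIT2, an axon guidance gene, had 3 and was the only 1 of 17 neuronal genes. MYC stood for the colorectal cancer drivers (1 of 20) and the cell cycle genes (1 of 9). The median over each list was 0 loops above 1 Mb, as it was over all genes at listed ends.

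For 7 lists no gene had an end of a loop above 1 Mb. These were origin and licensing genes (0 of 9 at listed ends), replisome genes (0 of 11), cohesin, CTCF and condensin genes (0 of 9), Polycomb and heterochromatin genes (0 of 11), HOX genes (0 of 37), clustered protocadherins (0 of 46) and immune genes (0 of 12). At a background of 0.882%, a count of 0 in lists of this size carries little information. At ORC2 on chromosome 2, the 77 listed loops reached at most 326 kb.

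More list members lay wholly between long loop ends than at them, which follows from spans above 1 Mb being far wider than ends of 5 kb. Over all autosomal protein-coding genes, 234 were spanned and 86 lay at ends. Of all autosomal protein-coding genes, 1.22% were spanned by a loop above 1 Mb and 0.403% by a gained one. Developmental transcription factors were spanned in 9 of 114 cases (7.89%), 4 of them by gained loops. Among these 4 were TBX3 (2 gained of 109 loops), TBX5 (2 of 2) and RUNX1 (1 of 26). TBX3 and TBX5 were spanned by the same 2 gained loops, so they are not separate loci here. Among colorectal cancer drivers, TCF7L2 (5 of 5) and MYC (4 of 8) were spanned. BMI1, a Polycomb gene, was spanned by 7 loops with 1 gained, and ZEB1 by 47 with 12 gained. KLF4 (45 loops) and KRT20 (13), an intestinal keratin gene, were spanned by not conserved loops only. HOX genes, protocadherins, origin genes, replisome genes and immune genes were not spanned by any loop above 1 Mb. Nor were cohesin, CTCF and condensin genes or neuronal genes. At a background of 1.22%, no spanned gene in lists of this size carries little information.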

How the data were processed

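The authors deposited a list giving each loop's left and right positions and a class word. Its name states hg38. Bowtie, hg19 and hg38 appear in the submitters' processing notes, with no roles. No loop caller, normalisation or threshold is given in the sources used here. Of 279669 rows, 49 lacked a class word and were left out, none of them above 1 Mb, and 2 repeated rows were dropped. The second deposited file gives compartments in 6 columns named S1, S2 and S3, which match no sample label, so they were not used and the compartment of loop ends is not analysed here. Genes came from RefSeq (GRCh38.p14), as bodies without exons, so whether an end is exonic, intronic or in a UTR was not determined. Ends were 5 kb inward from listed positions. Overlaps, joining and Wilson intervals were computed in Python 3.11.15 with pandas 2.3.3, numpy 2.4.6 and scipy 1.17.1. On simulated data, joining recovered 200 of 200 regions and gene overlap was right at 500 of 500 ends. Named loci followed a rule of size: the 10 regions with most loops of each class, the genes with most ends and members of the lists; smaller gained regions and genes between the ends were added after their values were seen. Members, lists and rules were chosen with earlier results of these data known. Some loci that this rule names are not reported here.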

Additional observations from a re-analysis of the deposited data

How the results depend on the processing

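Under 20 of 28 alternatives a share stayed inside its Wilson interval or a count moved by less than 1.5 times, and under 8 it did not; 4 of the 28, those on gene starts, on joining both classes and on weighting chromosomes equally, were chosen after seeing the data. The gained share was 6.28% above 750 kb and 12.8% above 1250 kb. It was 25.4% counted by region, with each class joined on its own, so a stretch with both classes counts in each. With both classes joined together, 17 of 158 regions held gained loops only and 24 held both. No share by region was computed for loops up to 1 Mb, so the 25.4% has no counterpart there. With ends of 10 kb, 51.7% of gained and 65.9% of not conserved loops above 1 Mb met a gene, and with ends of 1 kb 57.0% of not conserved loops did. With gene starts in place of bodies the shares were 1.23% for gained and 6.98% for not conserved loops, by construction, since a start is a part of a body. The cause of the other shifts was not tested. Leaving out the BTG1 window, which held 34 of the gained loops, gave a gained share of 9.87%, and leaving out chromosome 2 gave 9.86%. Gained regions numbered 38 to 53 at other joining distances. The alternative on compartments was not run. No paired analysis was possible because the list holds no values per library and no group has a second library. What depth limits is unknown.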
